A study of Saccharomyces cerevisiae with 4 samples.

Results

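Yeast genes of thiamine (vitamin B1) and vitamin B6 supply, 10 in all, were followed across strains that lack a subunit of the coactivator SAGA. The genes were THI4, THI13, THI20, THI21, THI6, THI80, THI7, THI2, SNZ1 and SNO1, chosen by the gene symbol of their probe sets. Each had 1 probe set, so that 10 of the 5716 probe sets on the arrays were members. The arrays held RNA of an ada1 deletion strain (1 array), of a gcn5 deletion strain (1 array) and of the wild-type strain (2 arrays, replicates 1 and 2) of Saccharomyces cerevisiae. All strains were of the BY4742 background, a haploid laboratory strain of mating type alpha that carries deletions in HIS3, LEU2, LYS2 and URA3. In the deletion strains a KanMX cassette, which gives resistance to G418, replaced the gene. Cells grew at 30 °C in YPD, a rich medium of yeast extract, peptone and glucose, and were collected in exponential phase. Each deletion strain was measured in a single sample, and the labels do not say whether the wild-type replicates are separate cultures. The p-values below therefore rest on the spread of the wild-type pair alone, as fitted over genes of like signal, and that spread may be technical. No spread within either deletion strain was measured.

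Thiamine is built from a thiazole and a pyrimidine that are made separately, joined, and converted to thiamine pyrophosphate, the cofactor of pyruvate decarboxylase and transketolase. In yeast the pyrimidine is formed from histidine and pyridoxal phosphate, the active form of vitamin B6, so that the pathways meet at the enzymes of the THI5 family, to which THI13 belongs. Yeast represses most THI genes when thiamine is plentiful, through Thi2, Thi3 and Pdc2. SAGA is recruited to promoters, where ADA1 (standard name HFI1) encodes a structural subunit and GCN5 the histone acetyltransferase.

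The values were MAS5 signals on a linear scale. Median signals were 457 on the ada1 deletion array and 525 on the gcn5 deletion array, against 413 and 494 on the wild-type arrays. The highest signals were 21989 on the ada1 deletion array and 12244 on the gcn5 deletion array, against 23746 and 11804 in wild-type replicates 1 and 2. HFI1 read 6.70 on the ada1 deletion array, against 246 and 279.8 on the wild-type arrays, and GCN5 read 3.28 on the gcn5 deletion array, against 309 and 385 on the wild-type arrays. LEU2, LYS2 and URA3 read at most 38.9 on every array. A background level was set at the 20th percentile of mean log2 signal, a signal of 166, and genes with a mean at or above it were tested with limma, 4541 in all. A gene is said to rise or fall at an adjusted p under 0.05 over all genes tested. Of the 10 members, 7 were tested. THI4, THI2 and SNO1 lay below the level and were not tested. Over all tested genes the median log2 difference from wild type was 0.08 for the ada1 and 0.15 for the gcn5 deletion array. The gcn5 value was 0.03 after quantile normalization of the arrays and -0.06 after scaling them to a common median.

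**Figure D1:**
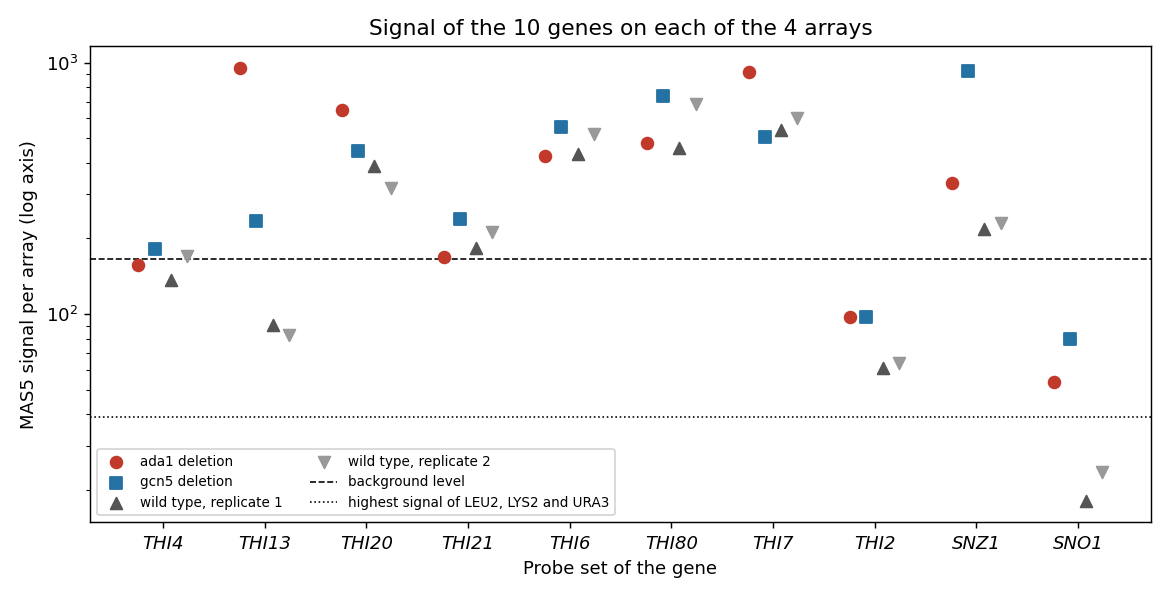
MAS5 signal (log axis) of the 10 genes on the ada1 deletion array, the gcn5 deletion array and the wild-type arrays, 1 point per array. The dashed line is the background level (166) and the dotted line the highest signal of the absent genes LEU2, LYS2 and URA3 (38.9). THI13 is highest in the ada1 deletion strain (956) and SNZ1 in the gcn5 deletion strain (925).

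The comparisons with wild type asked how these transcripts change when the structural subunit or the acetyltransferase is missing. THI13 rose in both deletion strains, further in the ada1 deletion strain. SNZ1 rose in the gcn5 deletion strain. In RNA of whole cultures, fewer expressing cells and less RNA per cell cannot be told apart. The test called 1 of 7 tested members in the ada1 deletion strain and 2 of 7 in the gcn5 deletion strain, all higher. Over all genes 8.43% were called in the ada1 deletion strain, 2.73% as higher, and 4.65% in the gcn5 deletion strain, 2.11% as higher. No member was called lower in either strain by limma. At an unadjusted p under 0.05, 3 members passed in the ada1 deletion strain and 2 in the gcn5 deletion strain, all of them higher. THI13 is in both counts. The share of all genes at that unadjusted threshold was not counted, so such counts, here and for the lists below, have nothing to be read against. Over the 7 tested members the median log2 difference was 0.57 in the ada1 deletion strain and 0.34 in the gcn5 deletion strain, where it was 0.11 after quantile normalization and 0.13 after scaling to a common median.

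THI13 encodes an enzyme that makes the pyrimidine precursor of thiamine. Its signal was 956 in the ada1 deletion strain and 235 in the gcn5 deletion strain, against wild-type signals of 90.7 and 83.0. Both deletion arrays lay above both wild-type arrays, and the wild-type arrays lay below the background level. THI13 was therefore at least 5.77-fold higher in the ada1 deletion strain and at least 1.42-fold higher in the gcn5 deletion strain than in wild type. The adjusted p-values of the limma fit were 1.23e-19 in the ada1 deletion strain (from 1.08e-44 to 0.000488 over the alternatives) and 0.00291 in the gcn5 deletion strain. THI13 passed the filter only through its signal in the deletion strains, so that it had to differ from wild type once it was tested, and its counts among the called members carry no weight of their own. In the gcn5 deletion strain its call ended when signals under the background level were raised to it (log2 difference 0.50, adjusted p = 0.401, from 1.03e-05 to 0.401 over the alternatives). The THI13 probe set can detect similar transcripts. THI5, THI11 and THI12, near-copies of THI13, had no probe set under their own symbols, so the signal may be of any of these genes.

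THI20 and THI21 encode kinases that phosphorylate the pyrimidine. THI20 read 647 in the ada1 deletion strain and 446 in the gcn5 deletion strain, against wild-type signals of 389 and 317. The ada1 deletion array was the highest and both wild-type arrays the lowest. The log2 difference was 0.88 ± 0.39 (SE, adjusted p = 0.186) in the ada1 deletion strain and 0.34 ± 0.39 (adjusted p = 0.748) in the gcn5 deletion strain, so neither passed the test on the values as deposited. In the ada1 deletion strain THI20 passed after quantile normalization (adjusted p = 0.0464), after scaling to a common median (0.00154, the lowest of the alternatives) and with dim probe sets kept (0.0496), the highest of the alternatives being 0.282. THI21 read 169 and 239 in the ada1 and gcn5 deletion strains, against wild-type signals of 183 and 211. The ada1 deletion array was the lowest and the gcn5 deletion array the highest, with log2 differences of -0.22 ± 0.36 (SE, adjusted p = 0.904) and 0.28 ± 0.36 (adjusted p = 0.788). The gcn5 value was -0.000303 after quantile normalization.

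THI4 encodes the enzyme that makes the thiazole, and supplies part of its own protein as a substrate. THI4 read 157 and 182 in the ada1 and gcn5 deletion strains, against wild-type signals of 137 and 170.0. All 4 signals lay close to the background level, and the ada1 deletion array lay between the wild-type arrays. The gcn5 deletion array was the highest, but after quantile normalization the log2 differences from wild type were -0.08 and -0.02 in the ada1 and gcn5 deletion strains.

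THI6 encodes the enzyme that joins the thiazole and the pyrimidine, and THI80 the kinase that converts thiamine to thiamine pyrophosphate. THI6 read 425 and 557 in the ada1 and gcn5 deletion strains, against wild-type signals of 432 and 521. THI80 read 480.1 and 738 in the ada1 and gcn5 deletion strains, against wild-type signals of 458 and 682. THI6 differed from wild type by -0.16 ± 0.37 in the ada1 deletion strain and 0.23 ± 0.37 in the gcn5 deletion strain on the log2 scale (SE), and THI80 by -0.22 ± 0.34 and 0.40 ± 0.34. Adjusted p-values were 0.624 or more. Each of these differences was smaller in size than that of wild-type replicate 1 minus replicate 2, which was -0.27 for THI6 and -0.58 for THI80.

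THI7 encodes the thiamine transporter of the plasma membrane. Its signal was 921 in the ada1 deletion strain and 508 in the gcn5 deletion strain, against wild-type signals of 542 and 599.8. The ada1 deletion array lay above both wild-type arrays and the gcn5 deletion array below both. The log2 difference in the ada1 deletion strain was 0.69 ± 0.32 (SE, adjusted p = 0.226). It passed after quantile normalization (0.0339) and after scaling to a common median (0.0129), with a range of 0.0129 to 0.388 over the alternatives. In the gcn5 deletion strain the log2 difference was -0.17 ± 0.32 (SE, adjusted p = 0.871).

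THI2 encodes an activator of the THI genes. It read 97.3 in each deletion strain, against wild-type signals of 61.0 and 64.1. Both deletion arrays lay above both wild-type arrays, 1.56-fold and 1.55-fold above the mean of their log2 signals, but every signal was below the background level, and the gene was not tested.

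SNZ1 and SNO1 encode the synthase and glutaminase subunits of the enzyme that makes pyridoxal phosphate, and are neighbours in the genome. They are known to be induced in stationary phase and on amino acid starvation. SNZ1 read 333 in the ada1 deletion strain and 925 in the gcn5 deletion strain, against wild-type signals of 219 and 231. Both deletion arrays lay above both wild-type arrays, which differed little from each other (-0.08 on the log2 scale, replicate 1 minus replicate 2). In the gcn5 deletion strain SNZ1 was 4.12-fold above wild type (log2 difference 2.04 ± 0.40 SE, adjusted p = 3.63e-05, with alternatives at 2.10e-13 to 0.0205). In the ada1 deletion strain the log2 difference was 0.57 ± 0.40 (SE, adjusted p = 0.565). SNO1 read 53.7 and 80.0 in the ada1 and gcn5 deletion strains, against wild-type signals of 18.2 and 23.6. As for SNZ1, the gcn5 deletion array was the highest, the ada1 deletion array came next and the wild-type arrays were the lowest. All 4 SNO1 signals were below the background level, and those of wild type were no higher than the highest signal of the absent genes.

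**Figure D2:**
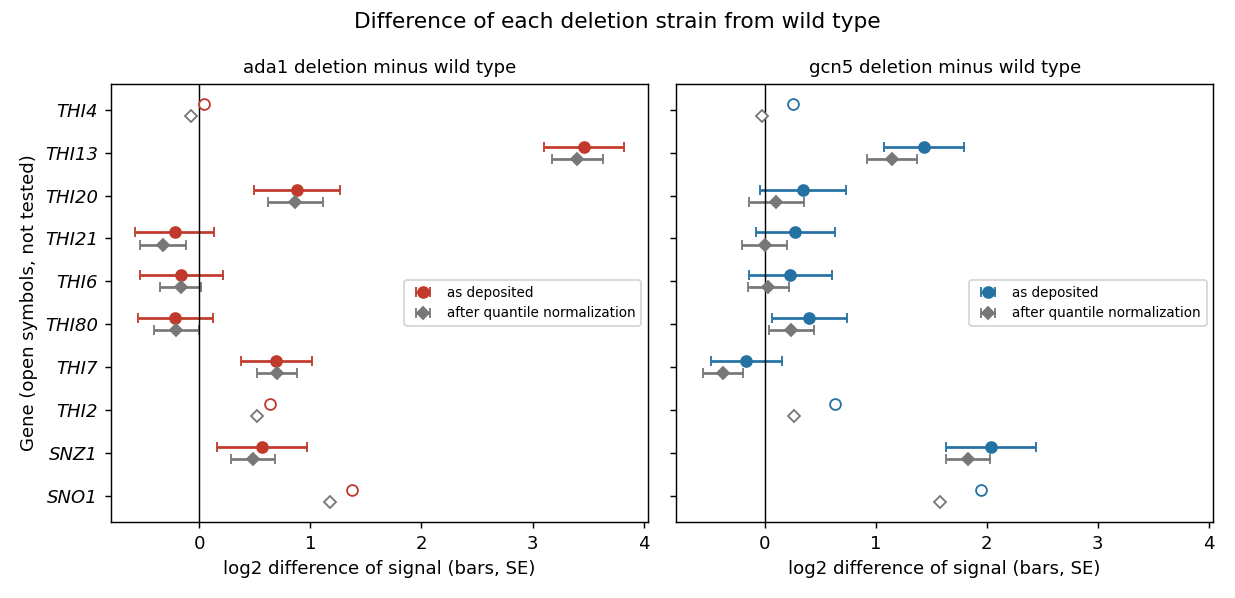
Log2 difference from wild type of the 10 genes in the ada1 deletion strain (left) and the gcn5 deletion strain (right), on the values as deposited (circles) and after quantile normalization (diamonds). Bars are standard errors of the limma fit, and open symbols mark genes below the background level, which were not tested. SNZ1 stands at 2.04 in the gcn5 deletion strain, and THI13 at 3.46 in the ada1 deletion strain, against wild-type signals below the background level.

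Counted by direction, 6 of the 10 members read above both wild-type arrays in the ada1 deletion strain and 9 of 10 in the gcn5 deletion strain. Over all genes the shares were 43.3% and 55.1%, and after quantile normalization both strains had 6 such members, against 46.0% and 43.1% of all genes. By 2-fold or more above both wild-type arrays stood 2 members in the ada1 deletion strain, THI13 and SNO1 (2.61% of all genes), and 3 in the gcn5 deletion strain, THI13, SNZ1 and SNO1 (2.70% of all genes). After quantile normalization 2 members stood so in each strain, against 2.38% and 1.39% of all genes. The signals of SNO1 on every array, and those of THI13 in wild type, were below the background level.

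The deletion strains were also set against each other, to test whether their responses differ, since the comparisons with wild type share the wild-type arrays. THI13 was higher in the ada1 than in the gcn5 deletion strain and SNZ1 was lower. Of the 7 tested members these 2 were called, where 6.25% of all genes were. For THI13 the log2 difference of ada1 minus gcn5 deletion was 2.03 ± 0.41 (SE, adjusted p = 4.72e-05), with both deletion arrays above the background level, though the gene was tested only because these arrays were bright. For SNZ1 it was -1.48 ± 0.47 (SE, adjusted p = 0.0294), and this call ended when low signals were raised to the background level (adjusted p = 0.0908, from 3.80e-05 to 0.0908 over the alternatives). For THI7 it was 0.86 ± 0.37 (SE, adjusted p = 0.193), which passed after quantile normalization (1.08, adjusted p = 0.0121) and after scaling to a common median (difference 1.06, adjusted p = 0.000304), with a range of 0.000304 to 0.339 over the alternatives.

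Other thiamine genes gave a mixed picture. Of 13 such genes, 10 had a probe set and 7 were tested. In the ada1 deletion strain none rose and 2 fell, and in the gcn5 deletion strain none rose and 1 fell (limma). At an unadjusted p under 0.05, 3 passed in the ada1 deletion strain and 1 in the gcn5 deletion strain. Over these 7 genes the median log2 difference was 0.28 in the ada1 deletion strain and 0.15 in the gcn5 deletion strain, which turned to -0.14 after quantile normalization. PHO3, an acid phosphatase that hydrolyses thiamine phosphates outside the cell and is itself repressed by thiamine, read 44.4 and 139.7 in the ada1 and gcn5 deletion strains, against wild-type signals of 2270 and 2149.7. It was thus at least 13.3-fold lower in each deletion strain, opposite in direction to THI13. PHO3 passed the filter only through its wild-type signals, so that it had to fall once it was tested. Its place among the genes that fell therefore carries no weight of its own. NRT1, a nicotinamide riboside transporter related to THI7, read 112 and 264 in the ada1 and gcn5 deletion strains, against wild-type signals of 198 and 271. It fell in the ada1 deletion strain (at least 1.40-fold, adjusted p = 0.0396, with alternatives at 0.000112 to 0.293), and the call ended under 3 of the 5 alternatives that tested it.

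Some genes were named after their values were seen. THI22, a relative of THI20 and THI21, read 433 and 303 in the ada1 and gcn5 deletion strains, against wild-type signals of 240.2 and 254. Its log2 difference in the ada1 deletion strain was 0.81 ± 0.40 (SE, adjusted p = 0.278) and passed in 2 of 5 alternatives, with adjusted p-values of 0.00687 to 0.278. THI73, a putative permease gene, read 134 and 106 in the ada1 and gcn5 deletion strains, against wild-type signals of 64.9 and 66.3. PET18, a gene regulated by thiamine, read 239 and 199 in the ada1 and gcn5 deletion strains, against wild-type signals of 112 and 134. Neither THI73 nor PET18 reached the background level on average, and in each both deletion arrays lay above both wild-type arrays. Other genes of the list went the other way. THI74 read 266 and 153 in the ada1 and gcn5 deletion strains, against wild-type signals of 206 and 234. It was called lower in the gcn5 deletion strain after scaling to a common median. Below both wild-type arrays lay THI72, NRT1 and PHO3 in the ada1 deletion strain, and THI74, TPC1 and PHO3 in the gcn5 deletion strain.

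Of 9 other vitamin B6 genes, 7 had a probe set and all 7 were tested. In the ada1 deletion strain none passed (limma), with 3 at an unadjusted p under 0.05 and a median of 0.42. The 3 were SNZ3 and SNO3, which were higher, and TPN1, which was lower. TPN1, named after its values were seen, read 920 and 1026 in the ada1 and gcn5 deletion strains, against wild-type signals of 1355 and 1406. Its log2 differences were -0.59 and -0.43, and it was called lower in both strains after scaling to a common median. In the gcn5 deletion strain 1 gene rose on the values as deposited, with a list median of 0.15 that turned to -0.06 after quantile normalization. The riser was PDX3, the oxidase that forms pyridoxal phosphate from its precursors, which read 1777 and 2131 in the ada1 and gcn5 deletion strains, against wild-type signals of 1280.3 and 1373. Its log2 difference in the gcn5 deletion strain was 0.68 ± 0.22 (SE, adjusted p = 0.0391, with alternatives at 0.0150 to 0.457), and the call ended under 4 of 6 alternatives. SNZ3, a homologue of SNZ1 that lies between SNO3 and THI5 in the genome, was also named after its values were seen. It read 661 and 473 in the ada1 and gcn5 deletion strains, against wild-type signals of 307 and 317. The ada1 deletion array was the highest, unlike for SNZ1. Its log2 difference there was 1.08 ± 0.39 (SE, adjusted p = 0.0653), and it passed under 5 of 6 alternatives, with adjusted p-values of 4.27e-05 to 0.156. Its neighbour SNO3 read 371 and 191 in the ada1 and gcn5 deletion strains, against wild-type signals of 206 and 228, with a log2 difference of 0.77 ± 0.38 in the ada1 deletion strain (SE, adjusted p = 0.274, from 0.0123 to 0.281 over the alternatives). The SNZ3 and SNO3 probe sets can detect similar transcripts, and SNZ2 and SNO2, their near-copies, had none under their own symbols.

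Of 10 genes of enzymes that use thiamine pyrophosphate, 7 were tested. On the values as deposited none passed in either strain by limma, also at an unadjusted p under 0.05. That test was weak for bright genes, with standard errors of 1.01 for PDC1 and 0.78 for TKL1 on the log2 scale. After quantile normalization these were 0.14 and 0.13. There 2 genes stood at an unadjusted p under 0.05 in the ada1 deletion strain (limma), and none was called in either strain. The median log2 difference of the 7 genes was 0.32 in the ada1 deletion strain and -0.19 in the gcn5 deletion strain, which turned to 0.02 after quantile normalization. ARO10, a decarboxylase gene of amino acid breakdown, was too dim on average to be tested and was named after its values were seen. It read 36.5 and 267 in the ada1 and gcn5 deletion strains, against wild-type signals of 255 and 215, at least 1.41-fold lower in the ada1 deletion strain.

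**Figure D3:**
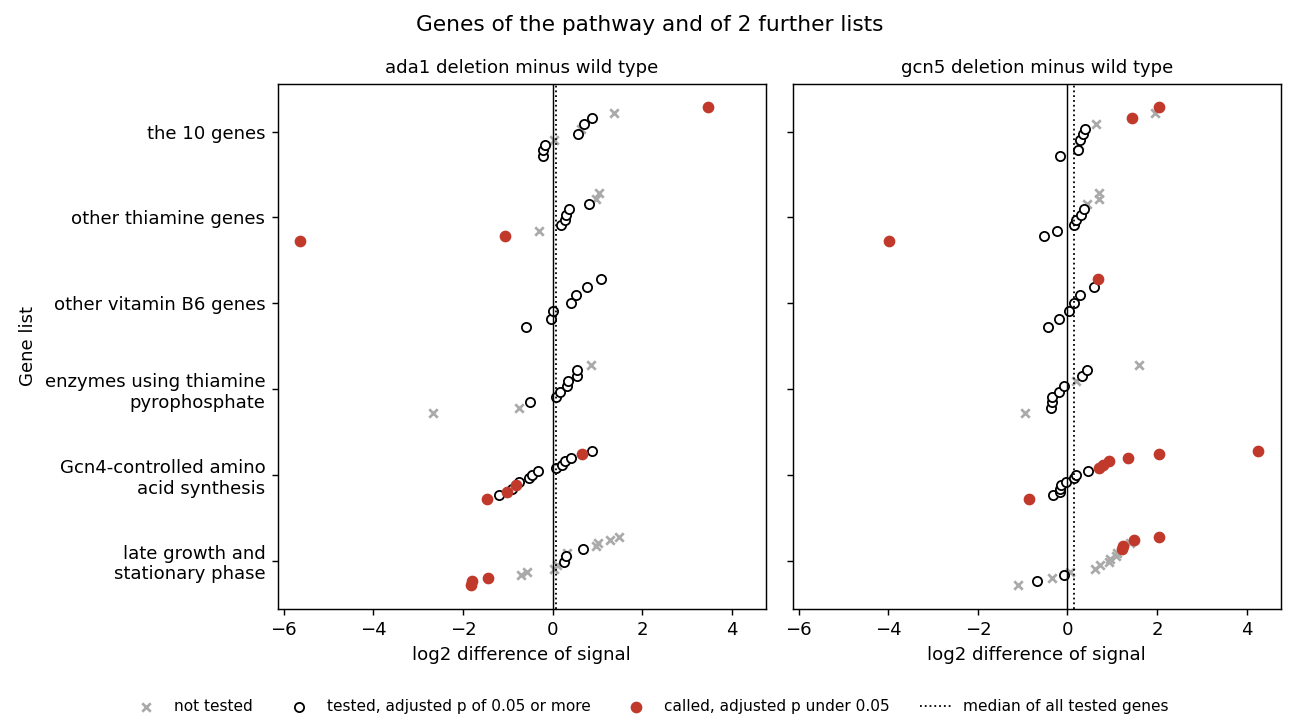
Log2 difference from wild type in the ada1 deletion strain (left) and the gcn5 deletion strain (right), 1 point per gene, for the 10 genes and for 5 other lists. Filled points passed the test, open points did not, and crosses were not tested. The dotted line is the median of all tested genes (0.08 and 0.15). PHO3 is the point at -5.64 and -3.98 among the other thiamine genes.

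Since SNZ1 and SNO1 are known to respond to the activator Gcn4 and to the end of growth on glucose, gene lists for both states were read beside them. Of 15 amino acid synthesis genes controlled by Gcn4, 6 rose and 1 fell in the gcn5 deletion strain, while 1 rose and 3 fell in the ada1 deletion strain. After scaling to a common median 3 rose in the gcn5 deletion strain, and after quantile normalization none rose and 6 fell in the ada1 deletion strain. The list median was 0.18 in the gcn5 deletion strain (-0.04 after scaling to a common median) and -0.47 in the ada1 deletion strain. ARG3, an arginine synthesis gene, read 2310 in the gcn5 deletion strain and 71.2 in the ada1 deletion strain, against wild-type signals of 171 and 84.6. It was called higher in the gcn5 deletion strain (adjusted p = 1.74e-27, from 2.29e-61 to 0.000601 over the alternatives). It passed the filter only through the gcn5 deletion array, since the ada1 deletion array and wild-type replicate 2 lay below the background level and replicate 1 close to it. Its call therefore carries no weight of its own. ARG1, of the same pathway, read 5360.0 in the gcn5 deletion strain and 2055 in the ada1 deletion strain, against wild-type signals of 2099 and 805. Its log2 difference in the gcn5 deletion strain was 2.04, or 1.35 without wild-type replicate 2 and 2.73 without replicate 1. In the ada1 deletion strain it was 0.66, but -0.031 without replicate 2, and the call ended under 5 of 6 alternatives (adjusted p of 0.00711 to 0.522). ARG8 and ARO3, synthesis genes of arginine and of aromatic amino acids, rose by 1.36 and 0.94 on the log2 scale in the gcn5 deletion strain. HIS4, of histidine synthesis, fell by 1.46 in the ada1 deletion strain, and LYS20, of lysine synthesis, fell by 1.02 in the ada1 deletion strain and by 0.86 in the gcn5 deletion strain. Of these calls ARG8 ended under 1 of 6 alternatives, LYS20 under 1 in the ada1 deletion strain and under 2 in the gcn5 deletion strain, and ARO3 under 4, with adjusted p-values of up to 0.0559, 0.0654, 0.252 and 0.225. GCN4 itself read 12479 and 8281 in the ada1 and gcn5 deletion strains, against wild-type signals of 12627 and 6928. The part of Gcn4 activity in the SNZ1 signal was not tested.

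Of 16 genes induced late in growth, 6 were tested, and 4 rose in the gcn5 deletion strain and 3 fell in the ada1 deletion strain. Over all tested genes these shares were 2.11% and 5.70%. The median of the 6 tested genes was 1.22 in the gcn5 deletion strain and -0.59 in the ada1 deletion strain. The list as a whole was not opposed in this way. In the ada1 deletion strain 9 of the 16 read above both wild-type arrays and 5 below both (43.3% and 29.4% of all genes). In the gcn5 deletion strain 10 read above and 3 below (55.1% and 23.3% of all genes). The genes not tested lay below the background level on average. The small heat shock genes HSP12 and HSP26 read 1820.5 and 979.9 in the gcn5 deletion strain and 125 and 427 in the ada1 deletion strain, against wild-type signals of 586 and 337 for HSP12 and of 325 and 376 for HSP26. TSL1, of trehalose synthesis, rose by 1.21 in the gcn5 and fell by 1.44 in the ada1 deletion strain on the log2 scale. GLC3, of glycogen synthesis, rose by 1.23 in the gcn5 deletion strain, and SPI1, a cell wall gene, fell by 1.81 in the ada1 deletion strain. Not every gene went opposite ways in the deletion strains. SPI1 also read lower in the gcn5 deletion strain (358, against wild-type signals of 567 and 585). It was called lower there after quantile normalization and after scaling to a common median. GLC3 differed by 0.69 in the ada1 deletion strain and was called higher there after scaling. With low signals raised to the background level the calls of HSP26, TSL1 and GLC3 ended in the gcn5 deletion strain (adjusted p = 0.0880, 0.0949 and 0.0603) and that of HSP12 in the ada1 deletion strain (0.112), in each case the highest of the alternatives. Among the defining genes of growth without glucose, FBP1 and MLS1 read at most 18.2 on every array, and ADH2 and ICL1 at most 157, below the background level. PCK1 read 250.2 and 221 in the ada1 and gcn5 deletion strains, against wild-type signals of 98.7 and 107. The part of growth stage in these differences was not tested.

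The genes nearest in pattern were sought by the root mean square difference of log2 signals relative to the wild-type mean over the 4 arrays, among 4386 named genes. For THI13 they were SER3, a serine synthesis gene (0.50), YIL014C-A (0.55) and HBN1, a putative nitroreductase gene (0.70). HBN1, for example, read 590.1 and 315 in the ada1 and gcn5 deletion strains, against wild-type signals of 132 and 144. For SNZ1 they were HSP26 (0.31), FIT2, a cell wall mannoprotein gene of iron uptake (0.32), and YDL085C-A (0.37). HSP26 and FIT2 had log2 differences of 1.49 each in the gcn5 deletion strain and of 0.29 and 0.56 in the ada1 deletion strain. None of the other thiamine or vitamin B6 genes was among these nearest genes.

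**Figure D4:**
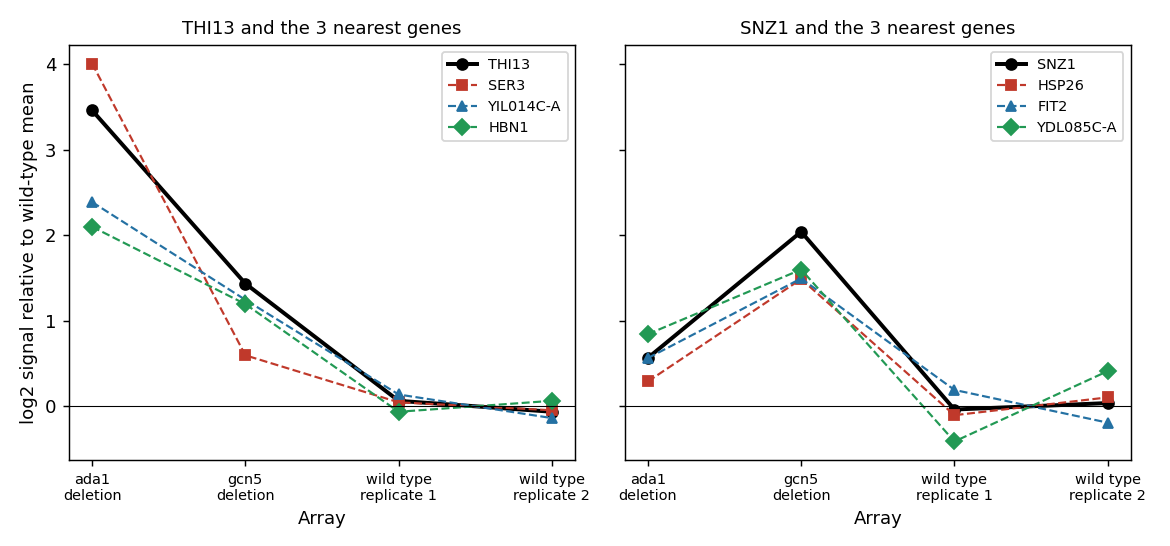
Log2 signal relative to the wild-type mean on each array for THI13 (left) and SNZ1 (right), with the 3 nearest genes of each. THI13 and its nearest genes are highest in the ada1 deletion strain, and SNZ1 and its nearest genes in the gcn5 deletion strain. The nearest genes were chosen for likeness on these same arrays, so that the shared pattern follows from the choice.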

How the data were processed

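Biotin-labelled RNA (200 ng of total RNA per sample, per the labels) was hybridised to 4 single-colour Affymetrix arrays. The authors deposited 1 intensity per probe set and array, made with MAS5 per the submitters' processing notes and linear by its values. As a method, MAS5 weighs perfect-match against mismatch probes and scales each array as a whole. Its version and settings were not given in the sources used here. Of 5716 probe sets, 5498 had 1 gene symbol in the platform annotation, 0 several and 218 none, and all 5498 matched the RefSeq gene table of assembly R64 by gene identifier. Only names and neighbours were taken from it. For 47 genes with several probe sets, that with the highest mean log2 signal was used, which left 5667 genes and unnamed probe sets.

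Log2 signals were fitted with limma 3.58.1 in R 4.3.3 (lmFit, eBayes with a trend), all 4 arrays in a fit of 3 groups, with Benjamini-Hochberg adjustment over 4541 genes. The wild-type pair gave the only residual degree of freedom (1), and the single array of each deletion strain is taken to vary as much as that pair. The prior degrees of freedom were infinite, so that each gene took the variance fitted for its mean signal and not its own. P-values are thus too low for genes with an unusually wide spread and too high for those with a narrow one. Standard errors of this fit are likewise not the spread of the single gene. The prior degrees of freedom were 7.84 in the fit on quantile-normalized signals. Where a group lay wholly below the background level, folds set the brighter mean against that level. Precision is limited by how few arrays there were. Members and gene lists were chosen with earlier results of these data known. The text names the members, genes of each list called in either strain (at most 6 a list), the 3 genes nearest to each member called against wild type, and the genes said to be named later.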

Additional observations from a re-analysis of the deposited data

Results flagged for a closer look

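The deletion strains differed from each other in 2 members by the test of ada1 minus gcn5 deletion. The log2 difference was 2.03 for THI13, read by a shared probe set and tested only because the deletion arrays were bright, and -1.48 for SNZ1. Each rests on 1 array per strain.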

How the results depend on the processing

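Over all genes, 383 were called in the ada1 deletion strain (124 higher, 259 lower), 211 in the gcn5 deletion strain (96 and 115) and 284 between the deletion strains (91 higher in ada1, 193 lower). After quantile normalization the counts were 657 (277 and 380), 326 (111 and 215) and 511 (254 and 257). After scaling to a common median they were 692 (296 and 396), 476 (162 and 314) and 561 (300 and 261). With a single variance prior they were 245, 123 and 187. With low signals raised to the background level, 106 were called in the gcn5 deletion strain and 135 between the deletion strains. Among the members, 3 were called in the ada1 deletion strain after quantile normalization, 3 after scaling to a common median and 2 with dim probe sets kept, against 1 on the values as deposited. With the filter at the 40th percentile (a signal of 347), which removes THI13, 0 were called there, 1 in the gcn5 deletion strain and 1 between the deletion strains. With low signals raised, 1 was called in the gcn5 deletion strain and 1 between the deletion strains, and scaling to a common median gave 4 between them. Members 2-fold or more from the wild-type mean numbered 2 in the ada1 deletion strain and 3 in the gcn5 deletion strain, and 1 in each with low signals raised. Leaving out either wild-type replicate, or pairing arrays of like signal range (ada1 deletion with replicate 1, gcn5 deletion with replicate 2), left no residual degree of freedom, so that no test was had and no count of calls. In these settings the members 2-fold or more from wild type numbered 2 to 3 in the ada1 deletion strain and 3 in the gcn5 deletion strain in each case. Of 31 called gene values, 14 kept their call under every alternative that tested them. The direction of a called value changed for ARG1 in the ada1 deletion strain without replicate 2 and in the pairing (-0.031 in each, and 1.35 without replicate 1). Among values not called, it changed for THI21 in the gcn5 deletion strain after quantile normalization (-0.000303, where THI4, not tested, was at -0.08 and -0.02 in the ada1 and gcn5 deletion strains), for THI80 in the ada1 deletion strain without replicate 2 and in the pairing (0.07 in each) and for THI4 there without replicate 1 (-0.11). No paired analysis was possible because the deletion samples carry no replicate numbers, and the pairing by signal range does not come from the labels. Signals near the background level limit what can be said of THI4, THI2 and SNO1. The cause of these changes was not tested.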
